A study of Mus musculus with 135 samples.

Results

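Obox5 was overexpressed in mouse embryonic stem cells (ESCs), and 4 such RNA libraries were set against 5 libraries of cells overexpressing GFP. These 9 libraries are part of a series of 135 samples on the role of OBOX proteins when the mouse embryo first switches on its own genes. All genes outside the Obox family were compared, 24050 in the deposited table of stem cells, of which 11153 had a value of at least 1 in at least 2 of the 13 libraries fitted. The Obox5oe and GFP cells were both labelled wild-type mESC and 2i ESCs, a culture with inhibitors of MEK and GSK3 that keeps ESCs in a naive state (the labels also give a serum and LIF medium), and libraries were made by Smart-seq2. The other 4 libraries of the fit came from the same cells overexpressing Obox3. Further comparisons drew on separate libraries: wild-type ESCs of an Nr5a2 experiment overexpressing Obox5 (2 libraries) or GFP (2 libraries), the same 2 treatments in the Nr5a2 KO line of that experiment (2 libraries each), and late 2-cell embryos of genotype Obox mzKO (3 libraries) or wild type (3 libraries) with wild-type MII oocytes (2 libraries). How Obox5 and GFP were delivered, for how long, and whether replicates were separate cultures is not given in the sources used here, so p-values measure only the spread between these libraries.

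Obox genes encode homeodomain proteins of the paired-like class, related to CRX and OTX factors, which bind a short core sequence, TAATCC or its reverse complement GGATTA. They are made in oocytes and 2-cell embryos. The mouse 2-cell embryo passes through a wave of gene activation in which a set of transcripts, many from multicopy families, appears for a short time, and a few cells of an ESC culture enter a related state.

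Levels are the FPKM that the authors deposited, a count of fragments divided by transcript length and by the library's mapped fragments. Obox5 itself had 1220, 467, 1130 and 2180 FPKM in the Obox5oe libraries 1 to 4, against 19.2, 0.0473, 0.149, 0.403 and 0 FPKM in the GFP libraries 1 to 5. The groups did not overlap, and the log2 fold change was 8.82 ± 0.844 (SE, limma adjusted p = 0.000803). Of the near-identical copies, Obox1, Obox2 and Obox7 were read at up to 4.0, 23.9 and 34.4 FPKM in Obox5oe libraries, each in library 1. In Obox5oe libraries 2 to 4 they reached 2.51, 1.91 and 12.7 FPKM. They had 2.14, 6.78 and 20.0 FPKM in GFP library 1. Reads from copies may be shared.

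The libraries numbered 1 stood apart before any comparison of groups. Besides Obox5 at 19.2 FPKM in GFP library 1, Obox3 was read at 99.5 FPKM in Obox5oe library 1 and 37.2 FPKM in GFP library 1, and at no more than 0.957 FPKM in the other Obox5oe and GFP libraries. Obox7 was read at 34.4 FPKM in Obox5oe library 1, 28.4 FPKM in Obox3oe library 1 and 20.0 FPKM in GFP library 1. Transcripts of Obox3, Obox5 and Obox7 were thus read in libraries of every treatment that carry this number. The number of genes at 1 FPKM or more was 8656 in Obox5oe library 1, against 9557 to 9889 in the other 3 Obox5oe libraries. It was 9027 in GFP library 1, against 9228 to 9904 in the other 4 GFP libraries. The part of these transcripts in the results was not tested. The counts of calls and some list counts are therefore also given without all libraries numbered 1.

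The summed FPKM of 8 ESC markers ran from 4370 to 7630 in Obox5oe and from 2840 to 8100 in GFP libraries. Most of each sum was Dppa5a, at 3690 to 6720 FPKM in Obox5oe and 2260 to 6950 FPKM in GFP libraries. Esrrb was at 0.888 to 1.56 FPKM in Obox5oe and 1.63 to 3.46 FPKM in GFP libraries. Of the 8 markers Sox2 alone was called, as lower with Obox5. The 7 fibroblast markers summed to 0.161 to 1.15 in Obox5oe and 0.226 to 0.776 in GFP libraries, so these markers were at or near 0. The 5 trophectoderm markers summed to 0.71 to 1.78 in Obox5oe and 0.718 to 1.67 in GFP libraries. The 6 primitive endoderm markers summed to 2.53 to 9.05 in Obox5oe and 0.519 to 1.8 in GFP libraries, and of them Gata4 alone was called.

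With Obox5, many more genes rose than fell. Calls required a log2 fold change of 1 or more in either direction, on log2(FPKM + 1), and a Benjamini-Hochberg adjusted p below 0.05. This scale understates the change of low genes. In limma with the replicate number as a block, 380 genes rose (3.41% of genes tested) and 88 fell (0.789%), while the median log2 fold change of all genes tested was -0.02. Of the genes that rose, 71 changed by at least 2 on the log2 scale, 23 by at least 3 and 7 by at least 4. Of those that fell, 1 changed by 2 or more, Serpinb9b. In bulk libraries, a change in the number of cells with a transcript and a change in its amount per cell cannot be told apart. Of the 380 genes that rose, 376 were higher in all 4 same-numbered pairs. The genes were called by a fit on these same pairs, so this count is no separate support. Its share of all genes tested was not computed. Among the 380, 160 had a mean under 1 FPKM in GFP libraries. In 254 of the 380, all Obox5oe libraries lay above all GFP libraries, an arrangement held by 3.59% of genes tested. In 22 of the 88, all Obox5oe libraries lay below all GFP libraries, against 1.3% of genes tested. Over the 4 numbered GFP libraries that enter the comparison, the count is 38 of the 88. The share of all genes tested was not computed for these 4 libraries, so the 1.3% is not the background of this count.

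The count of genes that fell depended on the block. Without it, 230 genes rose and 11 fell. The block takes GFP library 5, which has no partner, out of the comparison. Without all libraries numbered 1, 411 genes rose and 77 fell, and 344 of the 380 and 57 of the 88 genes were called again in the same direction.

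**Figure D1:**
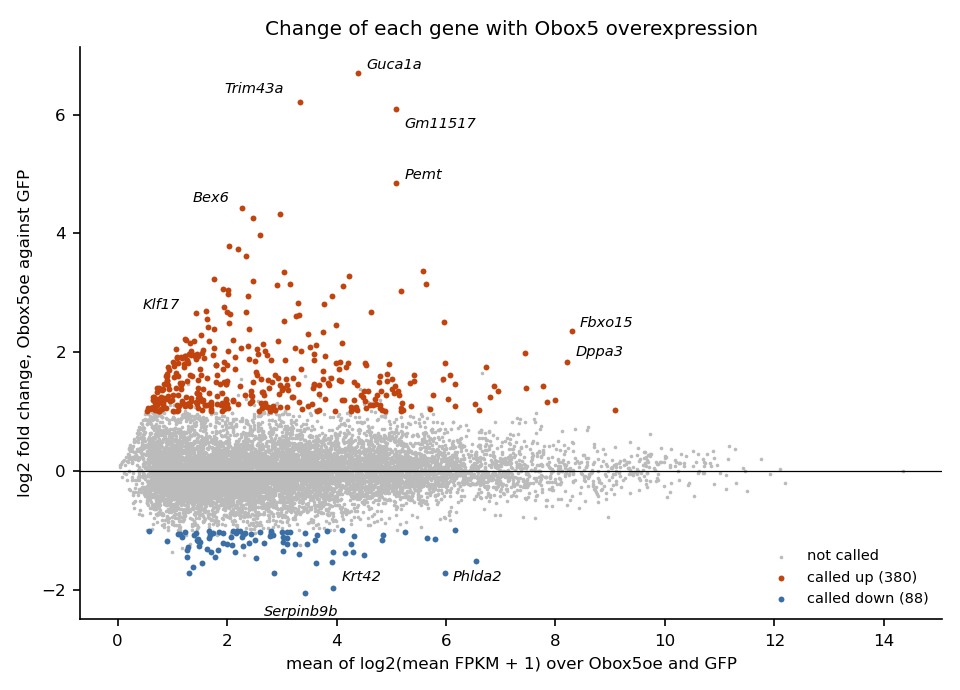
The vertical axis gives each gene's log2 fold change, Obox5oe against GFP, and the horizontal axis the mean of log2(mean FPKM + 1) over both groups. The 380 genes called up (orange) reach a log2 fold change of 6.70, while the 88 called down (blue) reach -2.06 and the uncalled genes (grey) centre on 0.

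The largest change was that of Guca1a, which encodes a calcium sensor that activates guanylate cyclase in photoreceptors. It had 213, 57.8, 383 and 221 FPKM in Obox5oe libraries, against 0.765, 0.489, 2.47, 0 and 1.24 FPKM in GFP libraries, a log2 fold change of 6.70 ± 0.398 (SE, limma adjusted p = 1.54e-06). The lowest Obox5oe library, replicate 2, also had the least Obox5, but the highest, replicate 3, did not have the most. Trim43a, a TRIM-family gene of the early embryo, had 65.8, 76.2, 90.1 and 120 FPKM in Obox5oe libraries, against 0.178, 0.381, 0, 0.126 and 0 FPKM in GFP libraries (log2 fold change 6.22 ± 0.288, SE, limma adjusted p = 9.53e-10). The 4 Obox5oe libraries were close to each other and far above every GFP library. Its relative Trim43b rose too, by 3.23 ± 0.395 (SE), to 4.11 to 15.8 FPKM in Obox5oe libraries, against at most 0.234 FPKM in GFP libraries. The TRIM43 genes are similar in sequence, so reads may be split between them.

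Pemt, the enzyme that methylates phosphatidylethanolamine to phosphatidylcholine, had 177, 73.5, 193 and 298 FPKM in Obox5oe libraries, against 1.65, 8.35, 7.93, 4.17 and 3.65 FPKM in GFP libraries. Its groups did not overlap, and its log2 fold change was 4.84 ± 0.474 (SE, limma adjusted p = 0.000149). Bex6 had between 11.4 (library 2) and 31.0 FPKM (library 4) in Obox5oe libraries and was at or below 0.0672 FPKM in all 5 GFP libraries. Its log2 fold change was 4.42 ± 0.233 (SE, limma adjusted p = 9.53e-10). Ninj2, encoding the adhesion protein ninjurin 2, had 24.6, 16.5, 33.2 and 22.3 FPKM in Obox5oe libraries, against 0.162, 0.302, 0.73, 0 and 0 FPKM in GFP libraries (log2 fold change 4.26 ± 0.269, SE, limma adjusted p = 1.96e-08). All 3 genes were silent or low in every GFP library.

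The predicted gene Gm11517 was at 932, 102, 111 and 123 FPKM in Obox5oe libraries, against 10.4, 0.562, 1.27, 0.539 and 0.318 FPKM in GFP libraries, and its log2 fold change was 6.09 ± 0.259 (SE, limma adjusted p = 7.25e-11). Library 1 of each group was the highest. The predicted genes Gm11544 and Gm11545 rose by 4.33 ± 0.594 and 3.19 ± 0.363 on the log2 scale (SE).

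Of the promoters of the 17 most raised genes, 13 are in the RefSeq table of GRCm38.p6, which gives 250 bases before and 50 bases after a gene's start. The motif GGATTA, or TAATCC on the other strand, is in the windows of 6 of these 13 genes. The windows of the 3 named genes with the largest changes are shown because each holds the motif, printed in capitals, 5′ to 3′ in the direction of the gene. The first is chr17:47400557-47400856 (minus strand), the second chr9:88580641-88580940 (plus strand) and the third chr11:60040139-60040438 (minus strand).
Guca1a: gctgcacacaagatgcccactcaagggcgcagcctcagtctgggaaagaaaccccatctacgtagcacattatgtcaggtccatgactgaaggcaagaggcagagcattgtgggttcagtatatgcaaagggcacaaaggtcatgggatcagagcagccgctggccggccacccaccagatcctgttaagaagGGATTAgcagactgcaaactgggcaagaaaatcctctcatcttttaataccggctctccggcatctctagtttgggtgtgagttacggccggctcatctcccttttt
Trim43a: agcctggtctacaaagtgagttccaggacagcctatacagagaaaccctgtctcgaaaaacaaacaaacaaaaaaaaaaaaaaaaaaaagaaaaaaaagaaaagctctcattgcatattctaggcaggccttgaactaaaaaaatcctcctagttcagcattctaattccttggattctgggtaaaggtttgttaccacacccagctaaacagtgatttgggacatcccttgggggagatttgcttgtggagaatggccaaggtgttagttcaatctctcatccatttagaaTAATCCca
Pemt: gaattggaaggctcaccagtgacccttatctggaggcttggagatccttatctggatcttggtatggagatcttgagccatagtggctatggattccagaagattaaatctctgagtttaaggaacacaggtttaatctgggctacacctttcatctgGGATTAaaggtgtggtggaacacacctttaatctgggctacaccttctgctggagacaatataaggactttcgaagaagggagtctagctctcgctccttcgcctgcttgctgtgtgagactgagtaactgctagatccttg
The match begins at position -57 from the start in Guca1a, at 42 in Trim43a and at -92 in Pemt, which has another window in the table that holds no match. Of the genes that rose and have a window, 38 of 258 (14.7%) hold a match in at least 1 of their windows, and of those with a log2 fold change of at least 2, 13 of 52 (25.0%) do. Among genes that fell, 2 of 60 (3.33%) do, and among all genes tested, 589 of 8240 (7.15%). A match is only these letters in these windows, and no binding data were used.

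The remaining named genes that rose span several functions. Chit1, encoding the chitinase chitotriosidase, had 21.3, 7.71, 21.3 and 51.1 FPKM in Obox5oe libraries, against 0.129, 0.0839, 1.6, 0.159 and 0 FPKM in GFP libraries. Fmo1, a flavin-containing monooxygenase, had 5.42, 10.0, 22.2 and 23.9 FPKM in Obox5oe libraries and was at 0 FPKM in 4 of 5 GFP libraries, with 0.124 FPKM in the fifth. Crxos, a homeodomain gene that lies opposite Crx, had 11.6, 6.29, 23.4 and 27.9 FPKM in Obox5oe libraries, against 0.344, 0.155, 0.31, 0 and 0 FPKM in GFP libraries. None of these genes overlapped between groups, and their log2 fold changes were 3.97 ± 0.379 for Chit1, 3.79 ± 0.296 for Fmo1 and 3.74 ± 0.373 for Crxos (SE). Smart-seq2 does not mark the strand, so reads of Crxos and Crx cannot be told apart where the genes overlap.

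Aqp9, a channel for water and glycerol, rose by 3.61 ± 0.243 and Fez1, an adaptor for kinesin transport, by 3.35 ± 0.305 (SE, log2 scale). Other raised genes were already read in GFP cells. Cdk2ap1, encoding a CDK2-associated protein, had 144, 111, 119 and 205 FPKM in Obox5oe libraries, against 5.83, 23.8, 20.5, 8.58 and 14.2 FPKM in GFP libraries (log2 fold change 3.37 ± 0.381, SE, limma adjusted p = 0.000161). Mad2l1bp, whose product helps to silence the spindle checkpoint, had 88.1, 124, 161 and 239 FPKM in Obox5oe libraries, against 8.29, 20.2, 21.3, 14.8 and 10.2 FPKM in GFP libraries (log2 fold change 3.15 ± 0.292, SE, limma adjusted p = 4.72e-06). Bnip3, a receptor for mitophagy, had 47.4, 50.4, 83.2 and 48.1 FPKM in Obox5oe libraries, against 4.92, 10.1, 8.5, 0.832 and 1.07 FPKM in GFP libraries (log2 fold change 3.28 ± 0.307, SE, limma adjusted p = 7.55e-06). All 14 named genes and 3 predicted genes that rose most were called without the block and without the libraries numbered 1.

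**Figure D2:**
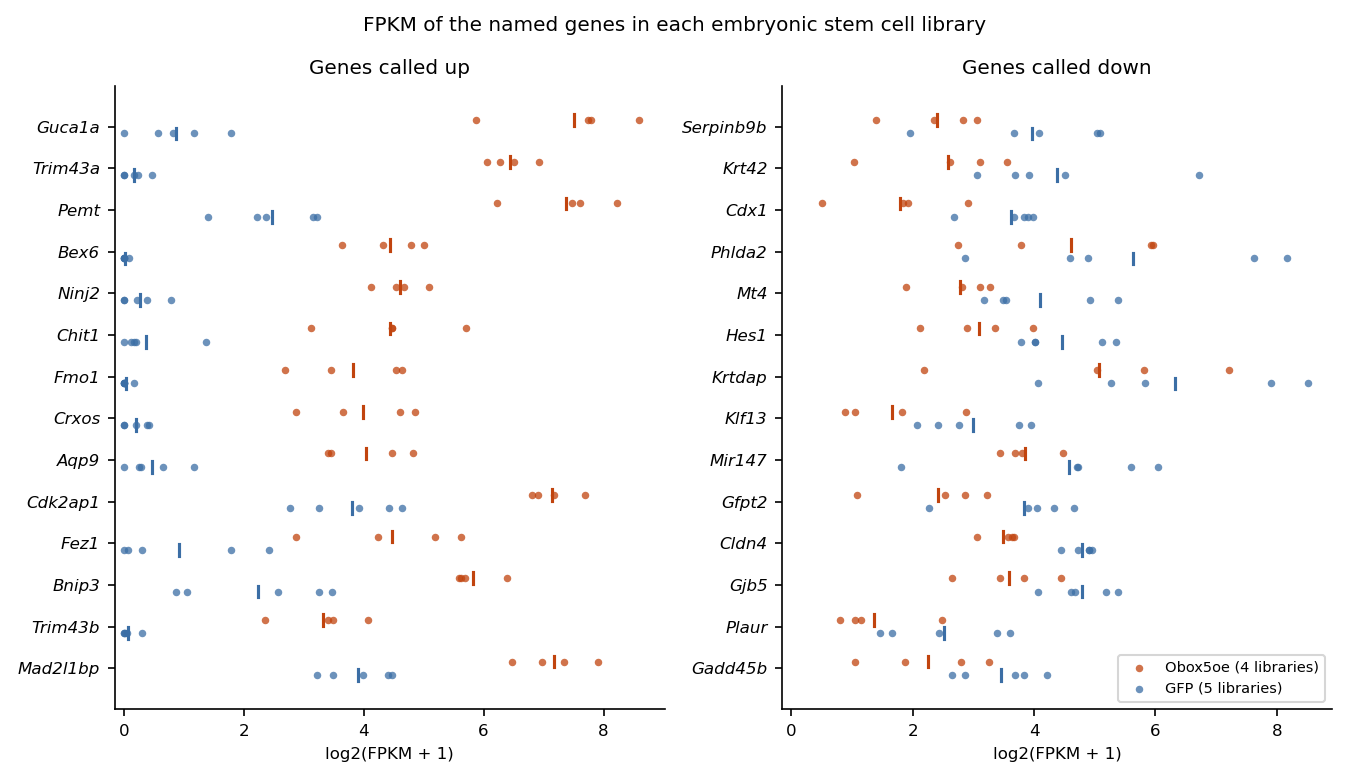
Each point is a library's log2(FPKM + 1) and each vertical tick a group mean, for the 14 named genes with the largest rise (left) and fall (right), with Obox5oe in orange above GFP in blue. The groups stand apart for all 14 genes that rose, whereas among those that fell they stand apart for Cldn4 alone.

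The named genes with the largest falls overlapped between groups, apart from Cldn4. Serpinb9b, a serine protease inhibitor, had 1.62, 7.29, 6.11 and 4.08 FPKM in Obox5oe libraries, against 11.7, 32.8, 15.9, 32.0 and 2.9 FPKM in GFP libraries (log2 fold change -2.06 ± 0.23, SE, limma adjusted p = 1.79e-05). Each Obox5oe library was below its partner, while GFP library 5 was within their range. Cldn4, a claudin of tight junctions, had 7.32, 11.7, 10.9 and 11.5 FPKM in Obox5oe libraries, against 30.1, 28.8, 25.3, 28.9 and 20.7 FPKM in GFP libraries, with no overlap (log2 fold change -1.38 ± 0.238, SE, limma adjusted p = 0.00116). Hes1, a repressor downstream of Notch, had 3.34, 9.19, 14.8 and 6.44 FPKM in Obox5oe libraries, against 15.2, 33.6, 39.7, 15.1 and 12.8 FPKM in GFP libraries (log2 fold change -1.54 ± 0.255, SE, limma adjusted p = 0.000827). The highest Obox5oe library of Hes1 exceeded the lowest GFP library.

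The keratin gene Krt42 fell by 1.97 and the epidermal gene Krtdap by 1.52 on the log2 scale. Cdx1, a caudal homeobox gene and Wnt target, fell by 1.73, and Phlda2, an imprinted inhibitor of placental growth, fell by 1.72. The zinc-finger gene Klf13 fell by 1.47, the metallothionein Mt4 by 1.55, the connexin Gjb5 by 1.37, the urokinase receptor gene Plaur by 1.36, the stress-response gene Gadd45b by 1.35 and Gfpt2, of the hexosamine pathway, by 1.40. Mir147 fell by 1.42 and AA467197 by 1.36, but the microRNA lies within that gene, so they are not separate observations. BC064078 fell by 1.25 and E130012A19Rik by 1.17. Without the block, none of the 14 named and 3 unnamed genes with the largest falls was called. Without the libraries numbered 1, 12 of the 14 named and 2 of the 3 unnamed genes were called.

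Among 28 gene lists, the genes of the 2-cell stage stood highest. The lists and their members were chosen with earlier results of these data known, so this rank is a description and no independent support. Of 50 listed genes, 44 were in the table and 33 were tested; 16 rose and 0 fell, with a median log2 fold change of 1.24, against 3.41% of all genes raised and a median of -0.02. A gene silent in GFP cells could pass the filter only through the libraries where it is read. Among the 22 listed genes at 1 FPKM or more in at least 2 GFP libraries, 9 rose (40.9%), whereas 2.29% of all 10082 genes that pass that way rose and 0.873% fell. Without the block 8 of the 33 rose, and without the libraries numbered 1 the count was 14.

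Arg2, the mitochondrial arginase, had 10.7, 11.1, 30.1 and 31.1 FPKM in Obox5oe libraries, against 0.469, 1.7, 3.88, 0.248 and 1.84 FPKM in GFP libraries (log2 fold change 3.13 ± 0.431, SE, limma adjusted p = 0.00102). Sp110, a nuclear body gene, had 10.5, 2.67, 11.2 and 21.6 FPKM in Obox5oe libraries, against 0.118, 0.132, 0.816, 0.288 and 0.23 FPKM in GFP libraries (log2 fold change 2.98 ± 0.317, SE, limma adjusted p = 3.25e-05). Neither gene overlapped between groups. Gm2016 (2.95) and Gm5662 (2.68), predicted genes of the Eif1a type, rose as well, with Gm5662 overlapping between groups and lost without the block (adjusted p = 0.0919). Of the other 12, BB287469, Gm4027, Gm8300, Usp17lb, Usp17lc, Usp17ld, Duxbl1, Duxbl2 and Duxbl3 belong to families with near-identical copies, whose values are uncertain, and the rest were Gm8994, Tmem92 and Sp140.

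The Zscan4 genes, the usual markers of the 2-cell-like state, were not called. Zscan4c had 0.877, 0.148, 17.0 and 4.58 FPKM in Obox5oe libraries, against 2.55, 2.58, 30.9, 0.0132 and 6.64 FPKM in GFP libraries (log2 fold change -0.23 ± 0.593, SE, limma adjusted p = 0.882). Library 3 was the highest in each group. Zscan4d had a log2 fold change of -0.02 and Zfp352 of 0.1, neither called, and Tcstv1 and Tcstv3 were listed at 0 in all 9 libraries.

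Of the 40 core and naive pluripotency genes tested, 4 rose and 3 fell, beside 3.41% and 0.789% of all genes. The median of the 40 was -0.25. Those that rose were Fbxo15, Dppa2, Dppa3 and Dppa4, genes that ESCs share with oocytes or early embryos. Fbxo15, encoding an F-box protein, had 870, 387, 766 and 933 FPKM in Obox5oe libraries, against 134, 150, 179, 96.9 and 102 FPKM in GFP libraries (log2 fold change 2.35 ± 0.296, SE, limma adjusted p = 0.000115). Dppa2, a DNA-binding partner of DPPA4, had 227, 318, 488 and 294 FPKM in Obox5oe libraries, against 61.4, 151, 135, 32.5 and 71.8 FPKM in GFP libraries (log2 fold change 1.98 ± 0.285, SE, limma adjusted p = 0.000293). Dppa3, which protects DNA methylation in the zygote, had 695, 341, 613 and 661 FPKM in Obox5oe libraries, against 131, 237, 108, 177 and 101 FPKM in GFP libraries (log2 fold change 1.83 ± 0.405, SE, limma adjusted p = 0.0162). The groups did not overlap for these 3 genes.

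Among the pluripotency genes that fell were Klf4 (-1.20) and Sox2 (-1.03). Sox2 had 3.01, 3.95, 6.92 and 5.21 FPKM in Obox5oe libraries, against 5.41, 9.67, 16.5, 13.2 and 12.8 FPKM in GFP libraries, and the highest Obox5oe library exceeded the lowest GFP library. The values of Pou5f1 (-0.24, adjusted p = 0.593) and Nanog (-0.03, adjusted p = 0.949) were not called. Under another scaling of the libraries 1 of the 40 genes fell instead of 3, and without the block 0 fell.

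**Figure D3:**
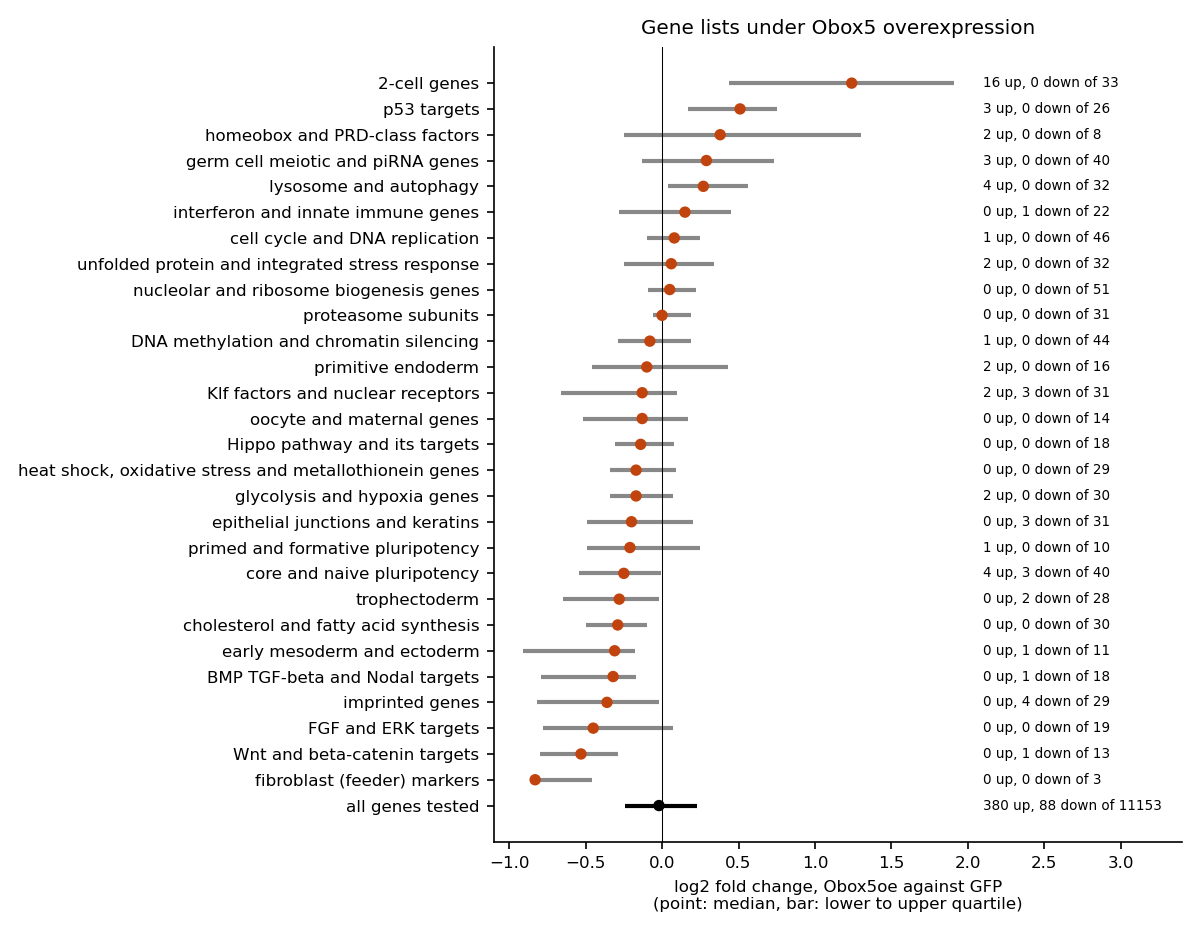
Points give the median log2 fold change, Obox5oe against GFP, of each gene list and bars its lower to upper quartile, with the number of tested members called up and down at the right and all genes tested at the bottom. The 2-cell genes lie highest, with 16 of 33 called up and a median of 1.24, against -0.02 for all genes tested.

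Other factors changed singly. Of 31 Klf factors and nuclear receptors tested, Klf17 and Rarg rose, and Klf13, Klf4 and Klf8 fell, beside 3.41% and 0.789% of all genes. Without the block 1 of the 31 rose and 0 fell. Klf17 does not pass the filter in GFP libraries. Klf17, abundant in oocytes and 2-cell embryos, had 4.8, 5.33, 7.83 and 5.52 FPKM in Obox5oe libraries, against 0.0655, 0.222, 0, 0.0478 and 0 FPKM in GFP libraries (log2 fold change 2.65 ± 0.234, SE, limma adjusted p = 1.69e-06). Rarg, the retinoic acid receptor gamma, rose by 1.36 with overlapping libraries. Of 8 homeobox and PRD-class factors tested, Crxos and Duxbl1 rose, neither of which passes the filter in GFP libraries; of the 4 that do, 0 rose, with a median of -0.31. Of 16 primitive endoderm genes tested, Gata4 and Npl rose, and of the 13 that pass the filter in GFP libraries 1 did. Gata4 had 3.06, 1.99, 3.16 and 8.71 FPKM in Obox5oe libraries, against 0.172, 0.178, 0.222, 0.225 and 0 FPKM in GFP libraries (log2 fold change 1.97 ± 0.244, SE, limma adjusted p = 5.43e-05). The other defining markers of that lineage, Gata6, Sox17, Sox7, Pdgfra and Dab2, were at or below 0.343 FPKM in every Obox5oe library. Sox7 had 0, 0.304, 0.158 and 0.27 FPKM in Obox5oe libraries, against 0.0988, 1.5, 0.807, 0.657 and 0.632 FPKM in GFP libraries, lower in each pair.

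Of 32 lysosome and autophagy genes tested, 4 rose and 0 fell, with a median of 0.27, against 3.41% of all genes raised. Among them were Gaa (1.25), which encodes the lysosomal alpha-glucosidase, and Atg7 (1.10) and Gabarapl2 (1.03), which act in autophagosome formation. Without the block 1 of the 32 rose. Of 26 p53 targets tested, 3 rose, again beside 3.41% of all genes, with a median of 0.51: Ei24 (1.97), Ddit4 (1.09) and Mdm2 (1.04). Ei24 had 18.6, 10.5, 23.9 and 38.6 FPKM in Obox5oe libraries, against 2.47, 2.37, 6.17, 10.3 and 4.04 FPKM in GFP libraries, without overlap. Without the block 1 of the 26 rose. In the integrated stress response list, Ppp1r15a (1.68) and Cth (1.34) rose among 32 genes tested, both overlapped between groups, and neither was called without the block (limma adjusted p = 0.121 and 0.141).

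Of 40 germ cell, meiotic and piRNA genes tested, Brdt (1.60), Tex11 (1.38) and Dpep3 (1.10) rose, and each was at or below 0.531 FPKM in every GFP library. They passed the filter only through other libraries, and 3.41% of all genes tested rose. Of the 29 members that pass in GFP libraries 0 rose, with a median of 0.13, against 2.29% of all genes that pass that way. Of 29 imprinted genes tested, 4 fell and 0 rose, with a median of -0.36, against 0.789% of all genes lowered. The count was 2 without the block and 2 with Rn45s, a ribosomal transcript, left out. Meg3, a maternally expressed noncoding RNA, had 0.454, 0.424, 0.712 and 0.524 FPKM in Obox5oe libraries, against 0.764, 4.16, 4.64, 6.89 and 6.07 FPKM in GFP libraries (log2 fold change -1.56 ± 0.288, SE, limma adjusted p = 0.0025), and the groups did not overlap. Mirg (-1.12) lies in the same imprinted cluster as Meg3, and Plagl1 (-1.05) and Phlda2 elsewhere. Of 31 epithelial junction and keratin genes tested, Krt42, Cldn4 and Dsg2 (-1.02) fell, and without the block 0 did.

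Single members moved in other lists: Pim2 (1.35) in primed pluripotency, P4ha2 (1.72) and Bnip3 in glycolysis and hypoxia, Cdc6 (1.07) in the cell cycle, Xaf1 (-1.12) in interferon genes and Id1 (-1.17) in BMP targets. Phlda2 and Cldn4 were the 2 of 28 trophectoderm genes tested that changed, both downward, beside 0.789% of all genes lowered. Without the block 0 of the 28 were called. Cdx1 stood in both the early mesoderm and ectoderm list and the Wnt list. Dppa3 was the single gene called among 44 of DNA methylation and chromatin silencing. No member was called among 51 nucleolar and ribosome biogenesis genes, 31 proteasome subunits, 30 genes of cholesterol and fatty acid synthesis, 29 of heat shock and oxidative stress, 19 FGF and ERK targets, 18 of the Hippo pathway, 14 oocyte and maternal genes or 3 fibroblast markers. The median log2 fold change of these lists ran from -0.83 for the fibroblast markers to 0.05 for the nucleolar genes. Over all genes tested 3.41% rose and 0.789% fell, so 0 or 1 call in lists this short cannot be told from that share.

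Libraries of another experiment, on wild-type ESCs of the Nr5a2 set, tested the same overexpression with their own GFP controls. Obox5 had 847 and 235 FPKM in their Obox5OE libraries, against 0.404 and 0.115 FPKM in their GFP libraries. With 2 libraries a group, limma called 74 genes up (0.631% of 11725 tested) and 2 down (0.0171%). Of the 74, 64 (86.5%) are among the 380 genes that rose with Obox5 in the main table, which is 16.8% of the 380. In 322 of the 380 genes (84.7%), both Obox5OE libraries lay above both GFP libraries, as did 16.8% of all genes tested. In 6 of the 380 both lay below. The count of calls is sensitive to single libraries: 76 in all, it was 41 without GFP library 1, 30 without GFP library 2 and 44 without Obox5OE library 2. It was 131 with a pseudocount of 0.1. The median log2 fold change of the 380 genes was 1.28 there, against -0.09 for all genes tested in that table.

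Of the genes that fell, both Obox5OE libraries of this line lay below both GFP libraries in 47 of the 88 (53.4%), against 24.8% of all genes tested, and both lay above in 1. Their median log2 fold change was -0.68 and 0 of them were called.

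Guca1a had 298 and 573 FPKM in Obox5OE libraries of the Nr5a2 wild-type line, against 1.21 and 0.684 FPKM in GFP libraries (log2 fold change 7.75 ± 0.861, SE, limma adjusted p = 0.00199). Trim43a had 142 and 108 FPKM in Obox5OE libraries, against 0 and 0.11 FPKM in GFP libraries. Pemt had 183 and 186 FPKM in Obox5OE libraries, against 2.31 and 3.24 FPKM in GFP libraries. All 3 genes were nearly silent without Obox5 and abundant with it. Gm11517 had 187 and 195 FPKM in Obox5OE libraries, against 0.713 and 0.514 FPKM in GFP libraries. Klf17 had 12.8 and 13.3 FPKM in Obox5OE libraries, against 0.0491 and 0.138 FPKM in GFP libraries, and Fbxo15 had 892 and 723 FPKM, against 196 and 189 FPKM. These 3 genes too lay far apart between groups. Bnip3 (0.64) was not called there, and Mdm2 (-0.21) had the opposite sign.

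In ESCs labelled Nr5a2 KO, limma called 103 genes up with Obox5OE against the GFP libraries of that line (0.878% of genes tested). Of these, 74 are among the 380 genes, which are 3.41% of genes tested in the main table. The median log2 fold change of the 380 was 1.22 in the KO line, against 0.02 for all genes tested there. Whether the 2 lines differ was not tested.

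**Figure D4:**
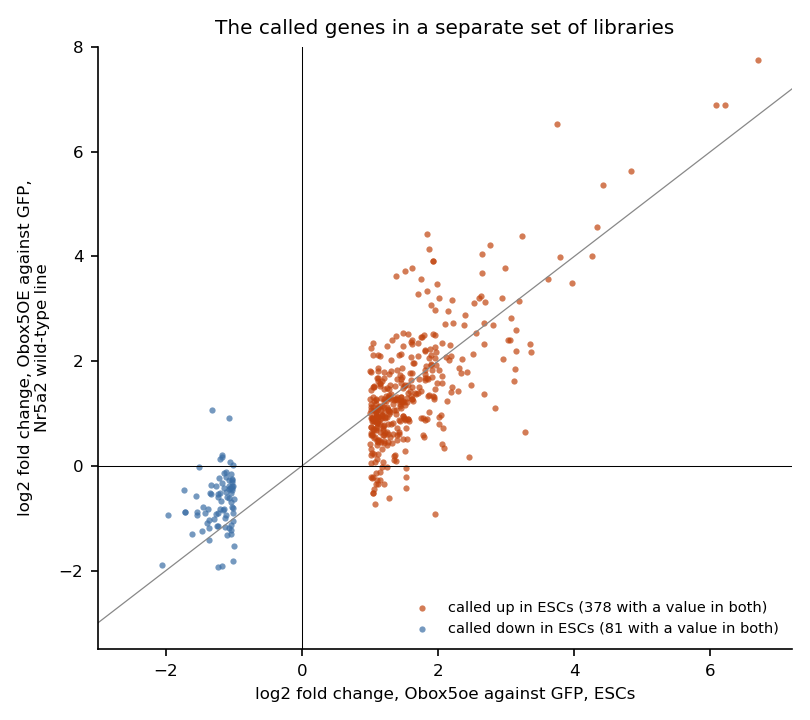
Each point is a gene called in ESCs, with its log2 fold change, Obox5oe against GFP, on the horizontal axis and that in the Nr5a2 wild-type line, Obox5OE against GFP, on the vertical axis (the diagonal marks equal change). Genes called up (orange) have a median of 1.43 in the first and 1.28 in the second table, and genes called down (blue) of -1.15 and -0.68.

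Late 2-cell embryos gave lists of genes that differ in level between Obox mzKO and wild-type embryos. Why these genes differ was not tested. Genes were taken as lower in Obox mzKO embryos where the 3 mzKO libraries lay below the 3 wild-type libraries, the means of FPKM + 1 differed at least 4-fold and the wild-type mean was at least 5 FPKM; 481 genes met this, 427 of them tested in ESCs. Of these 427, 72 rose with Obox5 in ESCs (16.9%, against 3.41% of all genes) and 1 fell, Fblim1. They are 18.9% of the 380 genes that rose, whereas 3.83% of all genes tested are on this list. Among the 367 that pass the filter in GFP libraries alone, 40 rose (10.9%, against 2.29%). The count was 56 without the block and 80 without the libraries numbered 1.

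Guca1a averaged 34.4 ± 21.9 FPKM in mzKO and 162 ± 53.1 FPKM in wild-type late 2-cell embryos (SD, n = 3 each). Bex6 averaged 6.19 ± 5.32 FPKM in mzKO and 71.7 ± 18.8 FPKM in wild-type embryos, and Gm11517 averaged 5.87 ± 3.21 FPKM in mzKO and 656 ± 86.0 FPKM in wild-type embryos. The mzKO libraries lay below the wild-type libraries in each, as the rule required. Npl, whose product splits sialic acid, averaged 3.08 ± 1.51 FPKM in mzKO and 159 ± 115 FPKM in wild-type embryos. In ESCs Npl had 5.36, 8.1, 17.6 and 15.5 FPKM in Obox5oe libraries, against 1.01, 1.74, 1.26, 0.898 and 1.02 FPKM in GFP libraries, without overlap. Sp110, Pemt, Fez1, Fbxo15 and Gm11544 are on the list too. Of the 16 called 2-cell genes, Sp110 is the 1 on this list, and 8 had a higher mean in mzKO than in wild-type embryos. Arg2, one of these 8, averaged 172 ± 22.7 FPKM in mzKO and 60.4 ± 12.8 FPKM in wild-type embryos.

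In all, 1691 tested genes were higher at the wild-type late 2-cell stage than in MII oocytes by the same rule; of them 146 rose in ESCs (8.63%) and 6 fell. These are 38.4% of the 380 genes that rose, against 15.2% of all genes tested. Among the 1559 that pass the filter in GFP libraries, 92 rose (5.9%). Of the 1691 genes, 318 were also lower in mzKO than in wild-type embryos, and of these 58 rose (18.2%) and 1 fell. Of 103 tested genes that were higher in mzKO than in wild-type embryos, 0 rose and 3 fell, Hes1, Lgals9 and Pdgfa. This list holds 0.924% of genes tested and 3.41% of the 88 genes that fell. In ESCs all 3 genes overlapped between groups, and without the block 0 of the 103 rose or fell. Among the 103, 1 rose and 2 fell without the libraries numbered 1. Hes1 averaged 19.6 ± 5.54 FPKM in mzKO and 3.18 ± 0.299 FPKM in wild-type embryos (SD, n = 3 each).

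**Figure D5:**
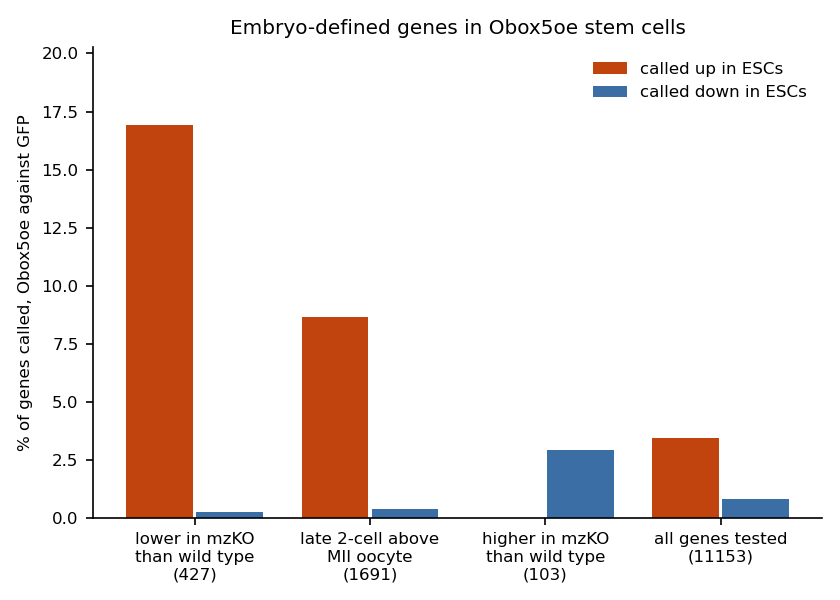
Bars give the percentage of tested genes called up (orange) or down (blue) with Obox5 in ESCs, for 3 groups of genes defined in embryos and for all genes tested, with the number of genes in parentheses. Of the genes lower in Obox mzKO embryos 16.9% were called up, against 3.41% of all genes tested.

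Obox3 overexpression in the same cells shares the GFP controls, so the levels are given beside each other. The log2 fold change against GFP was 6.70 for Obox5 and 7.60 for Obox3 in Guca1a, 6.22 and 6.53 in Trim43a, 4.84 and 5.01 in Pemt, and 2.65 and 3.64 in Klf17. Contrasting Obox5oe directly with Obox3oe, limma called 2 genes higher (0.0179% of genes tested) and 18 lower (0.161%) in Obox5oe.

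The 2 genes higher in Obox5oe were Nppb, a natriuretic peptide gene, and Slc34a3, a phosphate transporter gene. Nppb had 4.71, 7.01, 2.82 and 6.59 FPKM in Obox5oe libraries, against 1.61, 3.14, 1.26 and 0.787 FPKM in Obox3oe libraries, with overlap. In GFP libraries Nppb had 7.97, 9.37, 4.25, 6.29 and 2.17 FPKM. Its log2 fold change against GFP was -0.36 with Obox5 (limma adjusted p = 0.404) and -1.59 with Obox3. For Slc34a3 these changes were 0.89 and -0.26. Among the 18 lower genes, Ramp2, a receptor activity-modifying protein gene, had 0.969, 2.05, 4.52 and 3.49 FPKM in Obox5oe libraries, against 5.39, 31.6, 33.4 and 12.9 FPKM in Obox3oe libraries (log2 fold change -2.35, limma adjusted p = 0.0021). Its groups did not overlap. Gsc2, a goosecoid-type homeobox gene, had 0.177, 0.705, 0.795 and 0.995 FPKM in Obox5oe libraries, against 1.76, 14.8, 7.38 and 5.76 FPKM in Obox3oe libraries (log2 fold change -2.11, limma adjusted p = 0.0021). Zfp352, one of the 2-cell-like markers, was lower in Obox5oe than in Obox3oe (log2 fold change -1.13). It reached at most 0.947 FPKM in Obox5oe and 0.775 FPKM in GFP libraries, with a log2 fold change of 0.1 between them. Zfp352 thus passed the filter only through Obox3oe libraries. H2-Q7 and H2-Q9 were lower too, but are near-identical copies. Gsc2, H2-Q7, H2-Q9 and others of the 18 likewise passed the filter only with the Obox3oe libraries. The count is not stable: it was 5 without the block, 4 with a pseudocount of 0.1 and 0 with no filter. Without all libraries numbered 1 it was 16. It was between 6 (without Obox5oe library 2) and 39 (without GFP library 4) with 1 library left out. Leaving out Obox3oe library 2 gave 9, and leaving out Obox3oe library 3, Obox3oe library 4 or Obox5oe library 3 gave 10.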

How the data were processed

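The deposited tables hold FPKM per gene, made by the authors. Trim Galore 0.6.6, HISAT2 2.2.1 and StringTie 2.1.2 and build mm9 are named per the submitters' processing notes, with no role given. Whole reads could not be recovered from the FPKM values, so the depth is unknown; FPKM sums were 300746 to 535770 per ESC library, and the ribosomal transcript Rn45s took 0.734 to 21.2% of them. Of 24143 gene names, 27 turned into dates were left out.

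log2(FPKM + 1) values of 13 libraries (GFP, Obox3oe, Obox5oe) were fitted with limma 3.58.1 in R 4.3.3 (group and replicate number, trend and robust variances). Same-numbered libraries deviated together (every correlation over 0.1, from 0.213 to 0.674), and the numbers were taken as pairs; some libraries of different number also correlated, up to 0.599 for GFP 5 with Obox3oe 4. The Nr5a2 table was fitted by group alone. Alternatives changed the block, pseudocount, filter, scaling, Rn45s, threshold and libraries. Promoter windows are RefSeq's, of GRCm38.p6.

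Named genes were, among calls alike in all 4 pairs with a mean of at least 5 FPKM in the higher group, the 14 named and 3 unnamed genes with the largest change each way, and up to 4 called members per list. Members and lists were chosen with earlier results of these data known. Some called list members are not reported here.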

Additional observations from a re-analysis of the deposited data

Results flagged for a closer look

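In 136 groups of libraries (68 named genes in Obox5oe and in GFP), 12 had a library far from the rest by Dixon's criterion. Chance meets it in about 5% of groups where values are normally distributed. It was applied to FPKM without a log scale, and in all 12 the library was the highest of its group. The chance rate for such values was not computed, so the count of 12 is a description. Among genes that rose, Gm11517 stood at 932 FPKM in Obox5oe library 1, against 102 to 123 FPKM in the other Obox5oe libraries, and at 10.4 FPKM in GFP library 1, against 0.318 to 1.27 FPKM in the other GFP libraries. Bnip3 stood at 83.2 FPKM in Obox5oe library 3, against 47.4 to 50.4 FPKM in the others, and Chit1 at 1.6 FPKM in GFP library 3, against 0 to 0.159 FPKM. Obox5oe library 4 was high for Ppp1r15a (60.0 FPKM, against 8.39 to 16.6 FPKM in the other Obox5oe libraries), Pim2 (61.6 FPKM, against 24.5 to 29.7 FPKM) and Gaa (31.2 FPKM, against 6.55 to 9.78 FPKM). Tex11 stood at 5.21 FPKM in Obox5oe library 3, against 1.7 to 2.27 FPKM.

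Among genes that fell, Plaur stood at 4.56 FPKM in Obox5oe library 2, against 0.753 to 1.22 FPKM in the other Obox5oe libraries, and Xaf1 at 4.76 FPKM in Obox5oe library 1, against 1.56 to 1.77 FPKM. Krt42 stood at 104 FPKM in GFP library 4, against 7.3 to 21.8 FPKM in the other GFP libraries.

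Mdm2, the p53 inhibitor, stood at 74.7 FPKM in GFP library 3, against 16.7 to 30.2 FPKM in the other GFP libraries. It was higher with Obox5 in all 4 pairs of ESC libraries, whereas in the Nr5a2 wild-type line both Obox5OE libraries were below both GFP libraries (log2 fold change -0.21). The difference was not tested.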

How the results depend on the processing

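Median-ratio scaling, leaving out Rn45s, variances without a trend, and a fit on Obox5oe and GFP alone kept the counts of Obox5oe against GFP within 1.5 times, and no direction reversed. The 468 calls (380 up, 88 down) became 241 (230 and 11) without the replicate block, 151 (138 and 13) with a pseudocount of 5, 286 (237 and 49) with no filter, 250 (209 and 41) with a mean of at least 5 FPKM, and 867 (583 and 284) by adjusted p alone; a pseudocount of 0.1 gave 174 down. Leaving out 1 library gave 332 to 533 calls, 258 to 433 up and 74 to 116 down. The 20 genes that differed between Obox5oe and Obox3oe became 5 without the replicate block, 4 with a pseudocount of 0.1 or 5 or a mean of at least 5 FPKM, 0 with no filter and 32 with median-ratio scaling, and 6 to 39 with 1 library left out. The 76 calls of the Nr5a2 wild-type line became 208 with the replicate block, 131 with a pseudocount of 0.1, 37 with 5, 23 with no filter and 30 to 53 with 1 library left out. Its same-numbered libraries also deviated together (correlation 0.496). With 2 libraries a group both pairs give this same value, so it cannot show whether the numbers pair samples. Where a library left a group with 1 sample, that sample was assumed to vary like the other groups. Of 68 named genes, 24 were called under every alternative, and those that lost it most often were Plagl1 (12 alternatives), Dsg2 (9), Atg7 (8) and Cth, Dppa3 and Mdm2 (7 each). The cause of these differences was not tested. Without counts, depth sets no stated limit, and values near 0 FPKM cannot be given a floor. Leaving out all libraries numbered 1 was chosen after seeing the data.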

Other observations

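Some genes of MHC class II antigen presentation, picked after their values were seen and in no list, were called up with Obox5. Cd74, the invariant chain that guides class II molecules, had 8.68, 4.69, 6.32 and 6.97 FPKM in Obox5oe libraries, against 0.413, 1.25, 0.122, 0.23 and 0.43 FPKM in GFP libraries (log2 fold change 2.38, limma adjusted p = 0.00162). H2-Ab1, a class II beta chain, had 2.81, 2.19, 5.13 and 6.85 FPKM in Obox5oe libraries, against 0, 0.474, 0, 0 and 0.564 FPKM in GFP libraries (2.16, limma adjusted p = 4.44e-05). In both genes every Obox5oe library was above every GFP library. H2-Aa had 5.42, 0.137, 1.73 and 5.57 FPKM in Obox5oe libraries and was listed at 0 in all 5 GFP libraries (limma adjusted p = 0.0335). H2-DMa (1.88) and H2-DMb1 (1.75), which load peptides, were called without overlap, and H2-Eb1 (1.32) with overlap; H2-Eb1 lost its call without the block (limma adjusted p = 0.189). In the Nr5a2 wild-type line Cd74 (2.69) was called, and H2-Aa (2.46), H2-Ab1 (2.02), H2-DMa (2.23), H2-DMb1 (2.47) and H2-Eb1 (0.43) were not. In the Nr5a2 KO line none of these 6 was called, with log2 fold changes of 0.26 for Cd74, -0.51 for H2-Aa, 0.06 for H2-Ab1, 0.41 for H2-DMa, -0.03 for H2-DMb1 and -0.48 for H2-Eb1; the difference between lines was not tested. H2-Oa (0.70, limma adjusted p = 0.135), the class I genes H2-K1 (0.35) and H2-D1 (0.20) and their partner B2m (0.49) were not called.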
